A study of Mus musculus with 16 samples.

Results

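The hypoxia response genes described here are 10 named genes: Hif1a, Epas1, Egln3, Adm, Vegfa, Bnip3, Pfkfb3, Ankrd37, Ndrg1 and Ddit4. They are 10 of the 54123 genes with counts in 16 RNA-seq libraries of mouse colon organoids, which are epithelial cultures grown in Matrigel from colon crypts. Adm was picked because it stood among the largest rises after Cdx2-sgRNA in proximal organoids kept in WENR-plus medium, and the other 9 were added as genes of the same response. The comparison that picked Adm is therefore given as a description, and Adm is compared only between libraries that this choice did not use. Tests of Adm are still not independent of the choice. The fit takes its spread from all 16 libraries, and same-numbered libraries of both media deviated together. All 10 members had enough reads to be tested in the model of all libraries.

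Organoids came from the proximal or the distal colon of female mice of 8 weeks and were grown from 2 mice. Every group carries a heterozygous Cre-inducible BrafV600E allele and a heterozygous tdTomato reporter, and no Cre delivery is described for these cultures. Lentivirus brought in Cas9 with Scramble-sgRNA, the control guide, or with Cdx2-sgRNA, and blasticidin selection lasted 2 weeks. After 4 months of culture all organoids had 2 days of WENR-plus, followed by 3 days of either WENR-plus, which holds Wnt3a, EGF, Noggin and R-spondin 1, or WENR-minus, which lacks them. Region, guide and medium give 8 groups of 2 libraries. The Cdx2-sgRNA organoids grew from single cells with frameshifts in both Cdx2 alleles, whereas no such step is described for Scramble-sgRNA, so a difference between the guides cannot be told apart from a difference between a clone and a mixed culture. Both replicates of a group came from separate mice, per the study's supplement, and p-values here measure the spread between organoids of these 2 mice. Which mouse a replicate number stands for, and whether it is the same mouse in every group, is not given in the sources used here.

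Cells sense low oxygen through the HIF transcription factors. When oxygen is plentiful, prolyl hydroxylases mark the HIF alpha subunits for destruction by the VHL complex, and when it falls the alpha subunits last, pair with Arnt and bind short ACGTG or GCGTG stretches near their target genes. Targets send signals to blood vessels, shift metabolism towards glycolysis and clear mitochondria, and the colon epithelium, which borders a lumen with little oxygen, is known for a standing HIF response. Cdx2 is the homeobox factor that sets intestinal identity. The alpha subunits are controlled mainly as proteins, which RNA counts do not show.

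Libraries held 12465194 to 18922143 counts (median 16836530). Levels are given as CPM, the share of a library's counts after TMM scaling. Cdx2 was lower with Cdx2-sgRNA in proximal organoids, at 29.9 and 33.3 CPM against 142 and 127 in WENR-plus and at 73.9 and 71.0 against 203 and 151 in WENR-minus. In distal organoids it was 62.3 and 50.2 against 76.8 and 67.9 CPM in WENR-plus, and 126 and 86.1 against 112 and 110 in WENR-minus, where the groups overlap. A frameshift need not lower the RNA, so these levels are no full check of the edit. The 7 epithelial markers summed to 3972 to 18059 CPM per library. The 7 fibroblast markers summed to at most 1.12 CPM and the 4 muscle markers to at most 0.365, and of the 6 endothelial markers Cdh5 had at most 1 read and Emcn 0 in any library, while Vwf reached 211, Tie1 61 and Pecam1 26. In such bulk RNA, fewer cells of a type and less RNA per cell cannot be told apart.

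Adm encodes adrenomedullin, a secreted peptide that widens and seals vessels. It lies at chr7:110627661-110629820 on the plus strand of mm10 (ENSMUSG00000030790.15). In proximal Scramble-sgRNA organoids its RNA was at or near 0, with 0 and 0 reads in WENR-plus and 1 and 2 reads in WENR-minus. Proximal Cdx2-sgRNA libraries held 588 and 277 reads in WENR-plus and 229 and 225 in WENR-minus, which is 34.1 and 14.6 CPM and 17.0 and 11.9 CPM. Each proximal Cdx2-sgRNA library thus lay far above each proximal Scramble-sgRNA library. With 3 reads per library taken as the floor of the Scramble-sgRNA group, the proximal difference was at least 151.9-fold in WENR-plus, the comparison that picked Adm, and at least 84.4-fold in WENR-minus. The WENR-minus difference passed the test (edgeR adjusted p = 0.0277). However, leaving out any 1 of its 4 libraries ended the call, at log2 fold changes of 7.05 to 7.69. That test is not independent of the choice of Adm. Deviations of same-numbered libraries correlated between the media (r = 0.589 in proximal Cdx2-sgRNA and 0.407 in proximal Scramble-sgRNA).

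**Figure D1:**
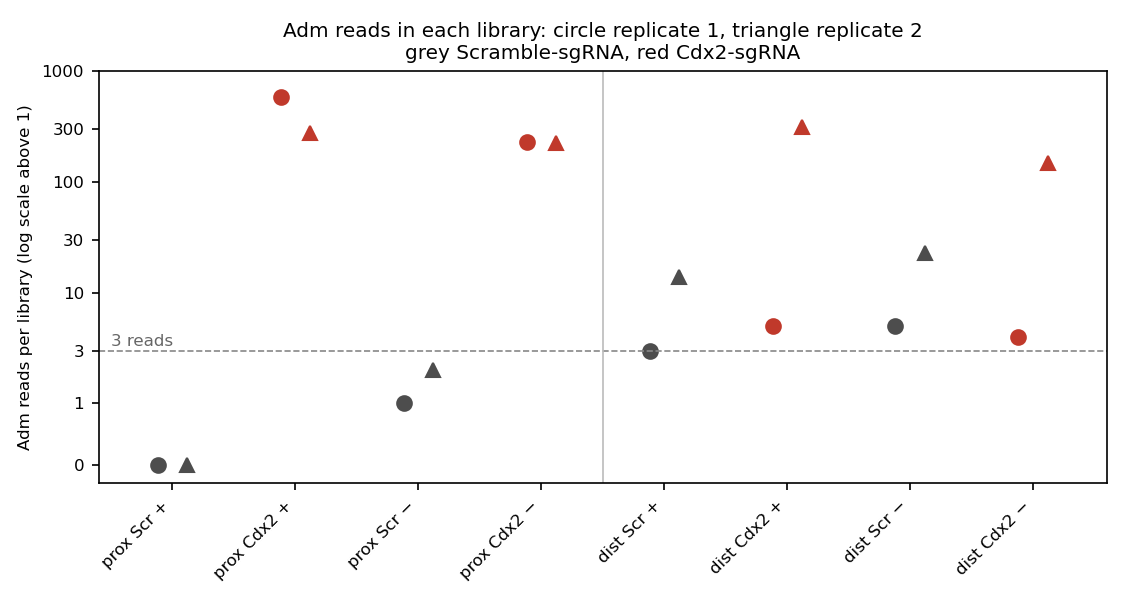
Adm reads in each of the 16 libraries (y axis, reads per library, log scale above 1) by group (x axis; prox and dist, proximal and distal; Scr and Cdx2, Scramble-sgRNA and Cdx2-sgRNA; + and −, WENR-plus and WENR-minus), with the dashed line at 3 reads. Proximal Scramble-sgRNA libraries hold 0 to 2 reads and proximal Cdx2-sgRNA libraries 225 to 588, and in distal organoids both replicate 2 libraries of Cdx2-sgRNA (314 and 149 reads) stand apart from both replicate 1 libraries (5 and 4 reads).

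In distal organoids the Adm replicates of a group differed widely. Scramble-sgRNA libraries held 3 and 14 reads in WENR-plus and 5 and 23 in WENR-minus, and Cdx2-sgRNA libraries held 5 and 314 in WENR-plus and 4 and 149 in WENR-minus. Replicate 2 was above replicate 1 in all 4 distal groups, by 57.95-fold in CPM for Cdx2-sgRNA in WENR-plus and by 36.8-fold for Cdx2-sgRNA in WENR-minus. Between same-numbered libraries, the Cdx2-sgRNA to Scramble-sgRNA ratio was 1.91 and 22.1 in WENR-plus and 0.880 and 7.56 in WENR-minus. The fitted log2 fold changes of 4.22 and 2.63 did not pass (edgeR adjusted p = 0.714 and 0.339). Without the distal Cdx2-sgRNA library of replicate 2 they were -0.60 and -1.58, so the sign rests on that library in each medium. Nearly all Adm reads (99.83%) belonged to the transcript Adm-201.

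The 250 bases before the Adm start site and those of 3 further members, Bnip3, Pfkfb3 and Hif1a, are shown because these genes moved together in proximal organoids and because their windows hold the letters that HIF binds. They are RefSeq promoter windows of GRCm38.p6, read 5′ to 3′ on the strand of the gene: Adm at chr7:110627407-110627656 (plus), Bnip3 at chr7:138909507-138909756 (minus), Pfkfb3 at chr2:11502091-11502340 (minus, inside the annotated gene) and Hif1a at chr12:73907617-73907866 (plus, also inside the annotated gene). Capitals mark ACGTG or GCGTG on either strand, CACGT and CACGC being the same letters read on the other strand, and in Pfkfb3 also 1 AATAAA, which is TTTATT on the other strand.
Adm: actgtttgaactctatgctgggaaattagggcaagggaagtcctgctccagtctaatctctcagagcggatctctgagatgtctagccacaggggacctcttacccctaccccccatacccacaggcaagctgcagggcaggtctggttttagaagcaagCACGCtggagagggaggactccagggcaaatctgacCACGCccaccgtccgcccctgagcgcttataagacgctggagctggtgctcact
Bnip3: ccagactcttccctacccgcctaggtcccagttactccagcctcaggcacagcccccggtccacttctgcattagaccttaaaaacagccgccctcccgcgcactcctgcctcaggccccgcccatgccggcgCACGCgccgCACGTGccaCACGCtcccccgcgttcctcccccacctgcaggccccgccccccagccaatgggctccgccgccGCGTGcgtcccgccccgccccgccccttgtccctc
Pfkfb3: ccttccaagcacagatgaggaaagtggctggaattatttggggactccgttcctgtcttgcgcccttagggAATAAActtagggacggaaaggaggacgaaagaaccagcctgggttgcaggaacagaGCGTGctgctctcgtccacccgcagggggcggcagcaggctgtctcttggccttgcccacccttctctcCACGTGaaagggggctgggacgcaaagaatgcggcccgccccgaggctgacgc
Hif1a: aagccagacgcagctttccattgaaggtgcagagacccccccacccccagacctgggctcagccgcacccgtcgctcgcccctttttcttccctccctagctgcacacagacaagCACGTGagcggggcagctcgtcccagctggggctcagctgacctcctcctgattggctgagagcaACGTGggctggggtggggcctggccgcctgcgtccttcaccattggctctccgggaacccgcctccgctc
The Adm stretch holds GCGTG on the other strand with first printed bases at -90 and -54 from the start site. Bnip3 has ACGTG on both strands as 1 palindromic CACGTG, and 3 GCGTG. Pfkfb3 has the same palindrome at -53, and Hif1a has it at -135 with a further ACGTG at -70.

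Of the 10 members, 8 had an entry among the 32817 RefSeq windows of 300 bases (250 before and 50 after the start), with 10 windows in all. ACGTG on either strand was in 8 of these 10 windows and in 19.6% of all windows. GCGTG was in 6 of 10 and in 32.4% of all, and at least 1 of both was in 9 of 10 and in 43.8% of all. The Vegfa window at the start of the annotated gene (chr17:46032328-46032627) held 0 of both. The Vegfa window inside the annotated gene (chr17:46025114-46025413) held 1 of each. Of the letters that Cdx factors are known to bind, TTTATG and TTTACG were in 0 of 10 windows (11.9% and 3.03% of all) and TTTATT was in 1, a Pfkfb3 window (19.6% of all). Ndrg1 and Epas1 were not among the windows. A match is a string of letters and not a bound site, and no match says only that these letters are not in this window.

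Hif1a and Epas1, the genes of the HIF-1 alpha and HIF-2 alpha subunits, moved in opposite directions with Cdx2-sgRNA in proximal organoids. Hif1a lies at chr12:73901375-73947530 (plus strand) and Epas1 at chr17:86753700-86833410 (plus strand). Hif1a was at 135 and 119 CPM with Scramble-sgRNA and 223 and 370 with Cdx2-sgRNA in proximal WENR-plus, and at 119 and 91.5 against 251 and 330 in proximal WENR-minus. Epas1 was at 73.4 and 45.7 CPM against 20.9 and 32.4 in proximal WENR-plus, and at 122 and 88.0 against 31.4 and 51.7 in proximal WENR-minus. The guides did not overlap for either gene in either medium. In proximal WENR-minus, Hif1a rose (log2 fold change 1.46, SE 0.26, edgeR adjusted p = 0.00181) and Epas1 fell by 1.33 on the log2 scale (SE 0.30, edgeR adjusted p = 0.00653). The Epas1 call was lost without replicate 1 of either guide, at -1.04 without the Scramble-sgRNA library (edgeR adjusted p = 0.0708) and -0.997 without the Cdx2-sgRNA library (edgeR adjusted p = 0.0623).

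In distal organoids Hif1a rose with WENR-minus under both guides and Epas1 with Cdx2-sgRNA. Hif1a was at 254 and 222 CPM in WENR-plus and 642 and 426 in WENR-minus with Scramble-sgRNA, and at 268 and 293 against 649 and 706 with Cdx2-sgRNA. Its rise with WENR-minus was 1.17 on the log2 scale with Scramble-sgRNA (SE 0.26, edgeR adjusted p = 0.00431) and 1.27 with Cdx2-sgRNA (SE 0.26, edgeR adjusted p = 0.00200). Without replicate 1 of distal Scramble-sgRNA WENR-minus the former was 0.84, under the fold threshold. Epas1 was at 32.2 and 41.7 CPM against 63.2 and 60.9 with Scramble-sgRNA, and at 45.1 and 46.9 against 113 and 134 with Cdx2-sgRNA, where the rise passed (1.43, SE 0.30, edgeR adjusted p = 0.00233). Hif1a was thus highest in distal WENR-minus organoids, and Epas1 in the WENR-minus organoids of distal Cdx2-sgRNA and proximal Scramble-sgRNA, 2 groups that overlap.

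Egln3 encodes PHD3, a prolyl hydroxylase that acts on the HIF alpha subunits and is itself a HIF target, and it lies at chr12:54178981-54203860 on the minus strand. It was at 375 and 247 CPM with Scramble-sgRNA and 860 and 826 with Cdx2-sgRNA in proximal WENR-plus, and at 645 and 316 against 845 and 880 in proximal WENR-minus. The WENR-minus difference was 0.85 and did not pass (edgeR adjusted p = 0.0860), with Scramble-sgRNA replicate 1 standing close to the Cdx2-sgRNA libraries. Without that library it was 1.49 and passed (edgeR adjusted p = 0.0170). Distal organoids rose with WENR-minus, from 446 and 249 to 1023 and 1218 CPM with Scramble-sgRNA (1.69, SE 0.35, edgeR adjusted p = 0.00291) and from 434 and 605 to 1277 and 1423 with Cdx2-sgRNA (1.38, SE 0.35, edgeR adjusted p = 0.00708). The latter missed the threshold without distal Cdx2-sgRNA WENR-plus replicate 1 (1.23, edgeR adjusted p = 0.0524).

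Vegfa encodes the growth factor that draws in blood vessels, and it lies at chr17:46016993-46032369 on the minus strand. In proximal organoids it was at 123 and 149 CPM with Scramble-sgRNA and 345 and 404 with Cdx2-sgRNA in WENR-plus, and at 234 and 163 against 298 and 550 in WENR-minus. The WENR-minus rise passed (1.095, SE 0.28, edgeR adjusted p = 0.0116) but rests on replicate 2: it was 0.85 without the Scramble-sgRNA library of that number and 0.59 without the Cdx2-sgRNA library (edgeR adjusted p = 0.0931 and 0.130). In distal organoids Vegfa rose with WENR-minus, from 133 and 115 to 269 and 312 CPM with Scramble-sgRNA (1.23, SE 0.28, edgeR adjusted p = 0.00449) and from 145 and 192 to 349 and 402 with Cdx2-sgRNA (1.16, SE 0.28, edgeR adjusted p = 0.00501). These distal calls held without any 1 of their libraries.

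Bnip3 and Pfkfb3 tracked each other across the 16 libraries (Pearson r = 0.920 of log2 CPM, a description over libraries that share groups and mice). Bnip3 encodes a protein of the outer mitochondrial membrane that marks mitochondria for removal (chr7:138890836-138909519, minus strand), and Pfkfb3 an enzyme that makes fructose 2,6-bisphosphate, the activator of glycolysis (chr2:11471433-11554077, minus strand). Bnip3 was at 284 and 218 CPM with Scramble-sgRNA and 1060 and 1350 with Cdx2-sgRNA in proximal WENR-plus, and at 192 and 112 against 615 and 744 in proximal WENR-minus. Pfkfb3 was at 51.9 and 43.1 CPM against 135 and 143 in proximal WENR-plus, and at 50.8 and 33.1 against 125 and 88.5 in proximal WENR-minus. For both genes every proximal Cdx2-sgRNA library was above every proximal Scramble-sgRNA library. In WENR-minus, Bnip3 rose by 2.16 on the log2 scale (SE 0.27, edgeR adjusted p = 0.000167) and Pfkfb3 by 1.35 (SE 0.25, edgeR adjusted p = 0.00202), and both calls held without any 1 of the 4 libraries.

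Distal Bnip3 was at 384 and 267 CPM with Scramble-sgRNA and 454 and 507 with Cdx2-sgRNA in WENR-plus, and at 768 and 822 against 876 and 815 in WENR-minus. It rose with WENR-minus in distal Scramble-sgRNA organoids (1.29, SE 0.26, edgeR adjusted p = 0.00252). In distal Cdx2-sgRNA organoids its rise was under the fold threshold (0.81, SE 0.26, edgeR adjusted p = 0.0235), with the media apart. Distal Pfkfb3 lay between 64.3 and 123 CPM in all 8 libraries, and it passed in none of the guide or medium comparisons of distal organoids. Its rise with WENR-minus in distal Scramble-sgRNA organoids, with the media apart, was under the fold threshold (0.69, SE 0.25, edgeR adjusted p = 0.0430). Bnip3 thus had its highest group in proximal Cdx2-sgRNA WENR-plus and its lowest in proximal Scramble-sgRNA WENR-minus, 7.82-fold apart in group means per kilobase of effective length, more than any other member that was above the floor in every group.

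Ankrd37, Ndrg1 and Ddit4 did not pass in any comparison of Cdx2-sgRNA with Scramble-sgRNA. Ankrd37, an ankyrin repeat protein gene (chr8:45996902-46005707, minus strand), was low, from 5.81 to 26.4 CPM, and its replicates differed by up to 3.52-fold (6.98 and 24.6 CPM in proximal Cdx2-sgRNA WENR-minus). Its locus overlaps Ufsp2 and Lrp2bp on the other strand, so its level leans on the strand information of the library kit. Ddit4 (REDD1, an inhibitor of mTORC1, chr10:59949669-59951834, minus strand) was at 96.3 and 73.0 CPM with Scramble-sgRNA and 144 and 164 with Cdx2-sgRNA in proximal WENR-plus, and at 67.6 and 62.6 against 121 and 116 in proximal WENR-minus. Its guides did not overlap there, yet the WENR-minus difference of 0.86 was under the fold threshold (edgeR adjusted p = 0.0433).

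Ndrg1, a stress-induced gene of differentiated epithelium (chr15:66929318-66969640, minus strand), followed the medium. With Scramble-sgRNA it was at 1047 and 973 CPM in WENR-plus and 2341 and 2312 in WENR-minus in proximal organoids, and at 1237 and 444 against 3391 and 2449 in distal ones. With Cdx2-sgRNA it was at 1420 and 1137 against 1426 and 845 CPM in proximal organoids, and at 1416 and 1074 against 3179 and 2493 in distal ones. The media overlapped in proximal Cdx2-sgRNA organoids and were apart in the other 3 settings. The rise passed in distal Scramble-sgRNA (1.80, SE 0.41, edgeR adjusted p = 0.00477), distal Cdx2-sgRNA (1.19, SE 0.40, edgeR adjusted p = 0.0308) and proximal Scramble-sgRNA organoids (1.20, SE 0.40, edgeR adjusted p = 0.0439). The proximal call was lost without any 1 of its 4 libraries, and the distal Cdx2-sgRNA call without WENR-minus replicate 1 or WENR-plus replicate 2 (edgeR adjusted p = 0.132 and 0.139). Without distal Scramble-sgRNA WENR-plus replicate 1 the first of these was 2.76.

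**Figure D2:**
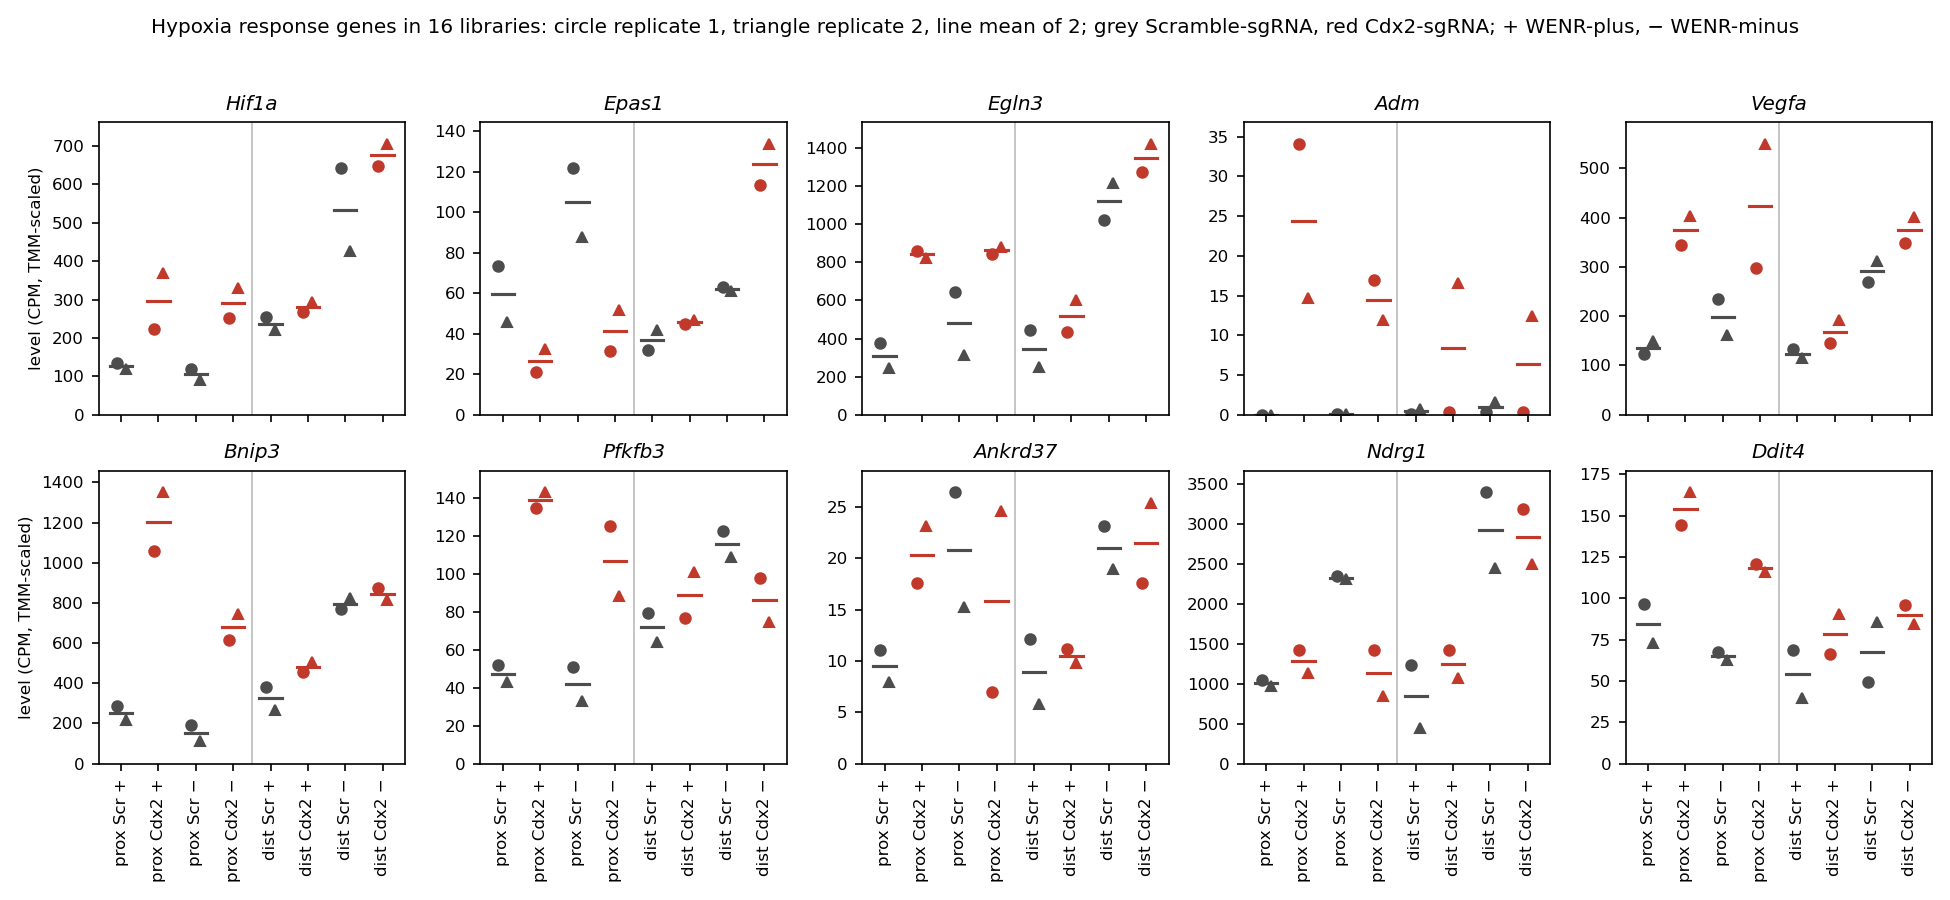
Level of each of the 10 members (y axis, TMM-scaled CPM, from 0) in the 16 libraries by group (x axis, abbreviated as prox or dist, Scr or Cdx2, and + or − for WENR-plus or WENR-minus), with circles for replicate 1, triangles for replicate 2 and lines for the mean of 2. Bnip3 and Pfkfb3 are raised in all 4 proximal Cdx2-sgRNA libraries, Hif1a peaks in distal WENR-minus at 426 to 706 CPM, and Adm in distal Cdx2-sgRNA differs between the replicates.

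Per kilobase of effective length, Bnip3 had the highest median over the 16 libraries (772 CPM per kilobase), followed by Ndrg1 (578), Egln3 (321) and Vegfa (226). Hif1a (61.9), Ddit4 (60.7), Pfkfb3 (47.6) and Ankrd37 (32.1) came next, with Epas1 at 9.90 and Adm at 0.509. Over log2 CPM of 16 libraries, Adm was most like Frrs1 (Pearson r = 0.915), Zfp605 (0.913), Qk (0.911), Sowaha (0.905) and Gm42433 (0.904). Ndrg1 was most like Slc46a3 (0.949), Hadhb (0.947), Ap2s1 (0.945) and Sys1 (0.945). Libraries of a group count as separate points here, so these values describe the 8 groups as much as the genes.

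Taking the members as a list, calls with Cdx2-sgRNA lay in proximal organoids, and none in distal ones passed in edgeR with the filter on low counts used throughout. Calls required an adjusted p below 0.05 together with a log2 fold change beyond 1 in either direction. In proximal WENR-minus, 5 of 10 members rose (Adm, Bnip3, Hif1a, Pfkfb3 and Vegfa) and 1 fell (Epas1), where 9.04% of the 15289 genes tested rose and 12.1% fell. Without replicate 2 of either guide 3 rose, and the number that fell was 0 without replicate 1 of either guide and 2 (Epas1 and Ankrd37) without Cdx2-sgRNA replicate 2. The members' median log2 fold change was 0.98, against -0.00033 over all genes. Both the count and the median include Adm, which was picked from the other medium of proximal organoids. With at least 10 counts in every library, which leaves Adm out, 4 members rose (Bnip3, Hif1a, Pfkfb3 and Vegfa) and 1 fell (Epas1). In that fit 804 of 10202 genes rose and 986 fell. In proximal WENR-plus, the comparison that picked Adm, log2 fold changes were 2.26 for Bnip3 (SE 0.27), 1.55 for Pfkfb3 (SE 0.25), 1.46 for Vegfa (SE 0.28), 1.44 for Egln3 (SE 0.35), 1.22 for Hif1a (SE 0.26) and -1.16 for Epas1 (SE 0.30). Of the 9 members beside Adm these 5 lay past the call rule upwards and 1 downwards, beside 6.93% and 8.94% of all genes, and nothing is read from that count. Ankrd37 (1.09) and Ddit4 (0.86) did not pass there. Leaving out a library moved the WENR-plus value of Egln3 to 1.20 (without Scramble-sgRNA replicate 2), of Hif1a to 0.81 (without Cdx2-sgRNA replicate 2) and of Epas1 to -0.72 and -0.88 (without replicate 1 of Scramble-sgRNA or Cdx2-sgRNA).

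In distal WENR-plus 0 of 10 members passed in edgeR, beside 0.262% of all genes, 1 (Adm) had an unadjusted p under 0.05, and DESeq2 called 0. Distal WENR-minus likewise gave 0 of 10 in edgeR beside 5.25% of all genes, with 1 at an unadjusted p under 0.05 (Epas1) and 1 called by DESeq2. Epas1 there was 62.0 ± 1.64 CPM with Scramble-sgRNA and 124 ± 14.5 with Cdx2-sgRNA (SD, n = 2 each), a log2 fold change of 0.99 (SE 0.30, edgeR adjusted p = 0.0581). It passed in edgeR with at least 10 counts in every library (1.02, edgeR adjusted p = 0.0424) and with no filter on low counts (1.01, edgeR adjusted p = 0.000117).

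**Figure D3:**
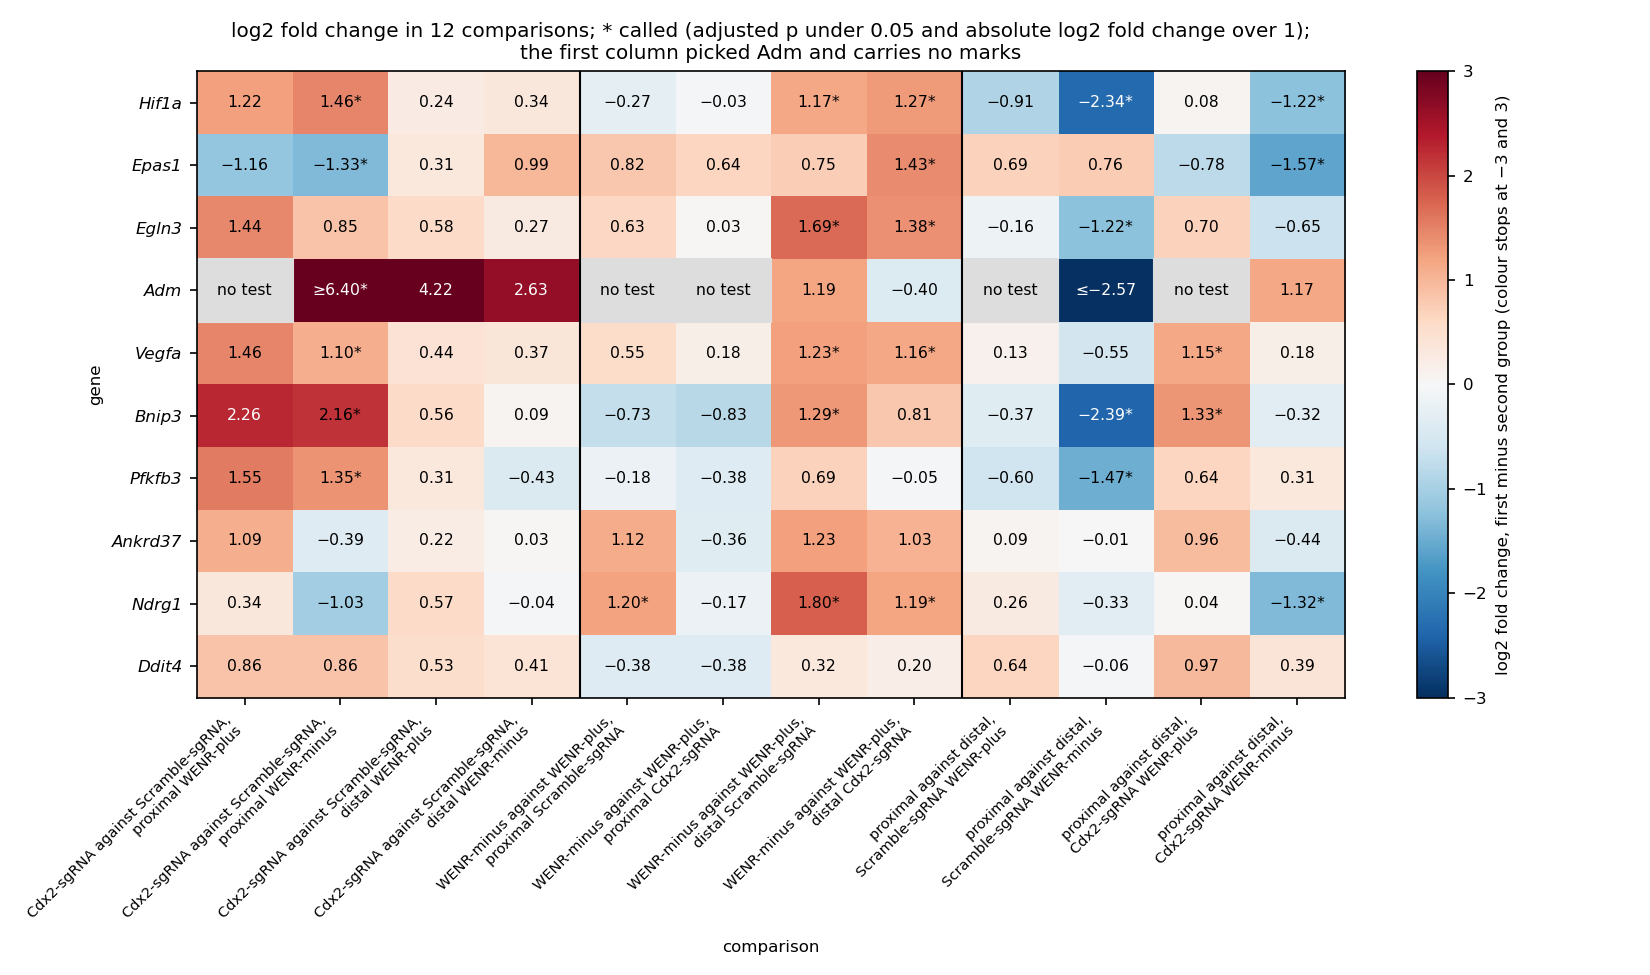
Heat map of the log2 fold change (colour and number, first minus second group) of each member (rows) in 12 comparisons of 2 groups (columns); asterisks mark calls except in the first column, the comparison that picked Adm, grey cells Adm where it was picked on libraries of the comparison, and ≥ or ≤ a bound from the floor of 3 reads. The proximal WENR-minus column of Cdx2-sgRNA marks Adm, Bnip3 (2.16), Pfkfb3, Hif1a, Vegfa and Epas1, the distal Cdx2-sgRNA columns hold none, and the distal medium columns hold 5 each.

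The direct test of the difference between the regions passed for 3 of 9 members in WENR-minus, beside 14.3% of all genes. The Cdx2-sgRNA effect was higher in proximal than in distal organoids for Bnip3 (2.07, SE 0.37, edgeR adjusted p = 0.00385) and Pfkfb3 (1.78, SE 0.35, edgeR adjusted p = 0.00599), and lower for Epas1 (-2.33, SE 0.42, edgeR adjusted p = 0.00423). These 3 held without any 1 of the 8 libraries. Hif1a (1.12, edgeR adjusted p = 0.0581) and Vegfa (0.73, edgeR adjusted p = 0.221) did not pass, so their regions are not shown to differ. Hif1a was called with DESeq2, with no filter on low counts and with at least 10 counts in every library. It was not called with DESeq2's size factors in edgeR, the compared groups alone, the replicate block or length-scaled counts. In WENR-plus, which shares libraries with the choice of Adm, 1 of 9 passed beside 4.98% of all genes: Bnip3 (1.70, SE 0.37, edgeR adjusted p = 0.0224), a call that leaving out any 1 of 5 of the 8 libraries ended (lowest value 1.46, without distal Scramble-sgRNA replicate 1). Pfkfb3 (1.24), Epas1 (-1.47), Vegfa (1.02) and Hif1a (0.98) did not pass there. Pfkfb3 was called with DESeq2, at least 10 counts in every library, the compared groups alone or the replicate block, and Epas1 with DESeq2. With no filter on low counts all of these were called.

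**Figure D4:**
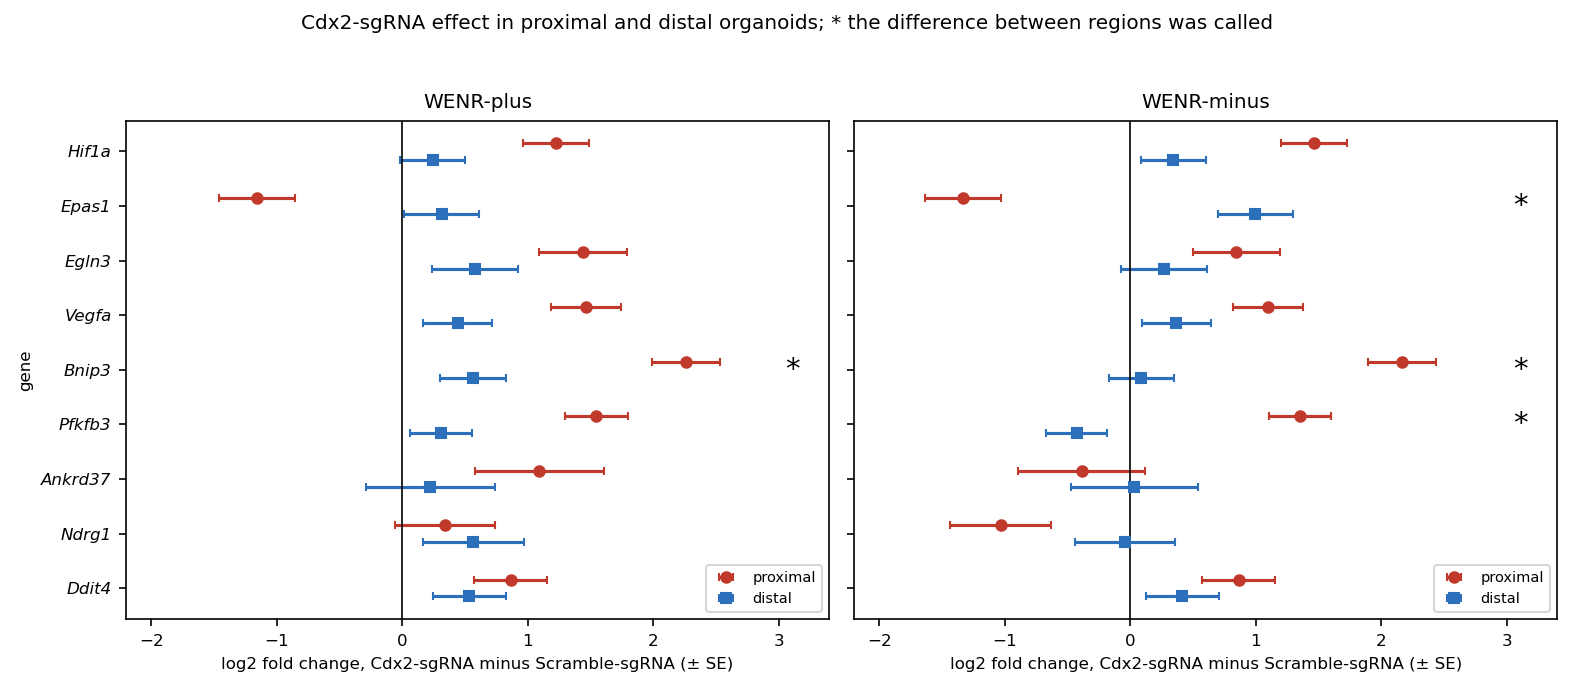
Log2 fold change of Cdx2-sgRNA against Scramble-sgRNA (x axis, points, with bars of ± 1 SE) for the 9 members beside Adm (y axis), in proximal (red circles) and distal (blue squares) organoids in WENR-plus (left) and WENR-minus (right); asterisks mark members whose regions differ by the test. Bnip3 is marked in both media, with differences of 1.70 and 2.07, and Pfkfb3 and Epas1 in WENR-minus.

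Whether the Cdx2-sgRNA effect differed between the media was tested next. In proximal organoids 0 of 9 members passed in edgeR, beside 3.60% of all genes, with 1 at an unadjusted p under 0.05 (Ndrg1, -1.37, edgeR adjusted p = 0.190) and 0 by DESeq2. With a block for each culture (region, guide and replicate), 2 passed there, Ndrg1 (-1.41, edgeR adjusted p = 0.0172) and Ankrd37 (-1.65, edgeR adjusted p = 0.0358). In distal organoids 0 of 9 passed in edgeR, as did 0% of all genes, with 0 members at an unadjusted p under 0.05, 0 by DESeq2 and 0 with the culture block.

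In distal organoids 5 of 10 members rose with WENR-minus in Scramble-sgRNA (Ndrg1, Egln3, Bnip3, Vegfa and Hif1a), where 12.2% of all genes rose and 14.2% fell, and 5 of 10 in Cdx2-sgRNA (Epas1, Egln3, Hif1a, Ndrg1 and Vegfa), where 14.9% rose and 18.1% fell. No member fell in either. The median over members was 1.21 and 1.095 on the log2 scale, against -0.11 and -0.10 over all genes. In proximal Scramble-sgRNA organoids 1 of 9 passed (Ndrg1), beside 17.0% of all genes. In proximal Cdx2-sgRNA organoids 0 of 9 passed in edgeR beside 6.40% of all genes, with 1 at an unadjusted p under 0.05 (Bnip3) and 0 by DESeq2. Ankrd37 in distal Scramble-sgRNA organoids (12.1 and 5.81 against 23.1 and 18.9 CPM) had a log2 fold change of 1.23 that did not pass (edgeR adjusted p = 0.0801). Same-numbered libraries of both media in 1 region and guide deviated together (r of 0.281 to 0.589 over 4 pairs of groups), and with a block for each such culture Ankrd37 also passed in proximal Scramble-sgRNA (1.097), distal Scramble-sgRNA (1.296) and distal Cdx2-sgRNA organoids (1.02).

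Proximal and distal Scramble-sgRNA organoids did not differ in any member in WENR-plus by edgeR (0 of 9, beside 1.75% of all genes; 4 at an unadjusted p under 0.05, namely Ddit4, Epas1, Hif1a and Pfkfb3; 0 by DESeq2). In WENR-minus 4 of 10 were lower in proximal organoids, where 3.20% of all genes were lower. The log2 fold change was -2.39 for Bnip3 (SE 0.27, edgeR adjusted p = 0.000557), -2.34 for Hif1a (SE 0.27, edgeR adjusted p = 0.000604) and -1.47 for Pfkfb3 (SE 0.25, edgeR adjusted p = 0.00520). For Egln3 it was -1.22 (SE 0.35, edgeR adjusted p = 0.0490), a call that was lost without either distal library or proximal replicate 2, with values of -0.80 to -1.34, and that was -1.88 without proximal replicate 1. The 3 others held without any 1 library.

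Proximal and distal Cdx2-sgRNA organoids differed in 2 members in WENR-plus and 3 in WENR-minus. In WENR-plus, Bnip3 (1.33, SE 0.26, edgeR adjusted p = 0.00394) and Vegfa (1.15, SE 0.28, edgeR adjusted p = 0.0104) were higher in proximal organoids, 2 of 9 members beside 7.40% of all genes. Vegfa lost its call without distal replicate 1 (1.02) or proximal replicate 2 (1.03). Ddit4 at 0.97 was under the fold threshold. It was called with DESeq2, with its size factors in edgeR, with no filter, with at least 10 counts in every library and on the compared groups alone. With the replicate block or length-scaled counts it was not called. In WENR-minus, Epas1 (-1.57, SE 0.30, edgeR adjusted p = 0.00144), Ndrg1 (-1.32, SE 0.41, edgeR adjusted p = 0.0188) and Hif1a (-1.22, SE 0.26, edgeR adjusted p = 0.00278) were lower in proximal organoids, 3 of 10 beside 16.5% of all genes. Ndrg1 lost its call without distal replicate 1 (-1.13) or proximal replicate 2 (-0.99).

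The region difference itself shifted with the medium for Bnip3 and Hif1a in Cdx2-sgRNA organoids. On the log2 scale, the WENR-minus value minus the WENR-plus value was -1.64 for Bnip3 (SE 0.37, edgeR adjusted p = 0.00928) and -1.30 for Hif1a (SE 0.37, edgeR adjusted p = 0.0270), 2 of 9 members where 7.70% of all genes were lower. Bnip3 held without any 1 of 8 libraries, and Hif1a lost its call without 6 of them, with a value of -0.89 without proximal WENR-plus replicate 2. Egln3 (-1.34) and Ndrg1 (-1.36) did not pass. With the culture block 6 of 9 passed, these 4 with Ankrd37 (-1.57) and Vegfa (-1.05), all lower. In Scramble-sgRNA organoids 0 of 9 passed in edgeR beside 0.0719% of all genes, with 3 at an unadjusted p under 0.05 (Bnip3, Hif1a and Pfkfb3) and 2 by DESeq2. Bnip3 there was -2.02 (edgeR adjusted p = 0.0910) and Hif1a -1.44 (edgeR adjusted p = 0.241), and with the culture block both passed (-2.08 and -1.42, edgeR adjusted p = 0.00754 and 0.0147).

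Other genes of the HIF pathway were counted from lists written by hand with earlier results of these data known. Of 13 tested genes of the HIF machinery, Cited2, which competes with HIF for its coactivator, rose with Cdx2-sgRNA in proximal WENR-plus (1.64) and WENR-minus (1.501), and with WENR-minus in all 4 settings (1.21 to 2.17). Hif3a rose in proximal WENR-plus (1.25) and no other member of that list passed with Cdx2-sgRNA. That is 2 of 13 higher beside 6.93% of all genes in proximal WENR-plus and 1 of 13 beside 9.04% in proximal WENR-minus. With WENR-minus it is 1 of 13 in each setting, beside 8.73% of all genes higher in proximal Scramble-sgRNA, 3.42% in proximal Cdx2-sgRNA, 12.2% in distal Scramble-sgRNA and 14.9% in distal Cdx2-sgRNA. Neither Arnt nor Vhl nor Egln1 passed in any of the 12 comparisons. The list median with Cdx2-sgRNA was 0.13 in proximal WENR-plus and 0.03 in proximal WENR-minus, against -0.05 and -0.00033 over all genes.

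Of 20 tested HIF targets outside glycolysis, 7 rose and 0 fell with Cdx2-sgRNA in proximal WENR-plus, and 3 rose and 3 fell in proximal WENR-minus, with list medians of 0.69 and -0.02 against -0.05 and -0.00033 over all genes. Over all genes 6.93% rose and 8.94% fell in the former comparison, and 9.04% rose and 12.1% fell in the latter. P4ha2, a collagen prolyl hydroxylase (3.10 and 3.19), and Hilpda, a lipid droplet protein (1.90 and 2.25), rose in both media. Ak4 (-1.82), Car12 (-5.29) and Fam162a (-1.42) were lower in proximal WENR-minus. In distal organoids 0 passed in WENR-plus and 2 fell in WENR-minus (Ak4, -1.53, and Tfrc), beside 0.262% and 5.25% of all genes called in either direction. With WENR-minus, 7 rose and 0 fell in distal Scramble-sgRNA organoids, among them Car9 (1.24), Mxi1 (1.36) and Plin2 (1.43), and 4 rose and 0 fell in distal Cdx2-sgRNA organoids, beside 12.2% and 14.9% of all genes that rose and 14.2% and 18.1% that fell.

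Of 17 tested glycolytic HIF targets, Pgk1 alone rose with Cdx2-sgRNA in proximal WENR-plus (1.21), while in proximal WENR-minus Pfkm rose (1.63) and Hk2 (-1.71), Pfkfb4 (-1.47) and the glucose transporter Slc2a1 (-1.09) fell. These are 1 of 17 higher beside 6.93% of all genes, and 1 of 17 higher and 3 of 17 lower beside 9.04% and 12.1%. With WENR-minus, 8 rose and 0 fell in distal Scramble-sgRNA organoids (Slc2a1 by 2.34, Pfkfb4 by 2.25, Hk2 by 1.98 and Ldha by 1.73 on the log2 scale), with a list median of 1.11 and beside 12.2% of all genes that rose and 14.2% that fell. In distal Cdx2-sgRNA organoids 5 rose and 1 fell (Pfkm, -2.04), beside 14.9% and 18.1% of all genes, and in proximal Scramble-sgRNA 4 rose and 1 fell, beside 17.0% of all genes called in either direction. In proximal Cdx2-sgRNA 0 of 17 passed in edgeR, beside 6.40% of all genes. Among 7 tested receptors for Adm and Vegfa, Ackr3, which binds adrenomedullin and chemokines, was at least 17.4-fold and at least 36.3-fold higher with Cdx2-sgRNA in proximal WENR-plus and WENR-minus. Ackr3 reads differed between the replicates, with 17 and 87 in WENR-plus and 19 and 208 in WENR-minus. Flt1, a Vegfa receptor gene, was at least 63.9-fold higher by group mean in WENR-plus, a bound that rests on 1 library (11 and 376 reads). Nrp1 was higher with Cdx2-sgRNA in both media (2.33 and 4.87). Over all genes 6.93% were higher with Cdx2-sgRNA in proximal WENR-plus and 9.04% in proximal WENR-minus. The adrenomedullin receptor gene Calcrl passed in no contrast, nor did Ramp1 or Ramp3 (at most 15 reads). Of the listed receptor genes, Kdr (at most 4 reads) and Ramp2 (at most 9 reads) had too few reads to be tested.

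**Figure D5:**
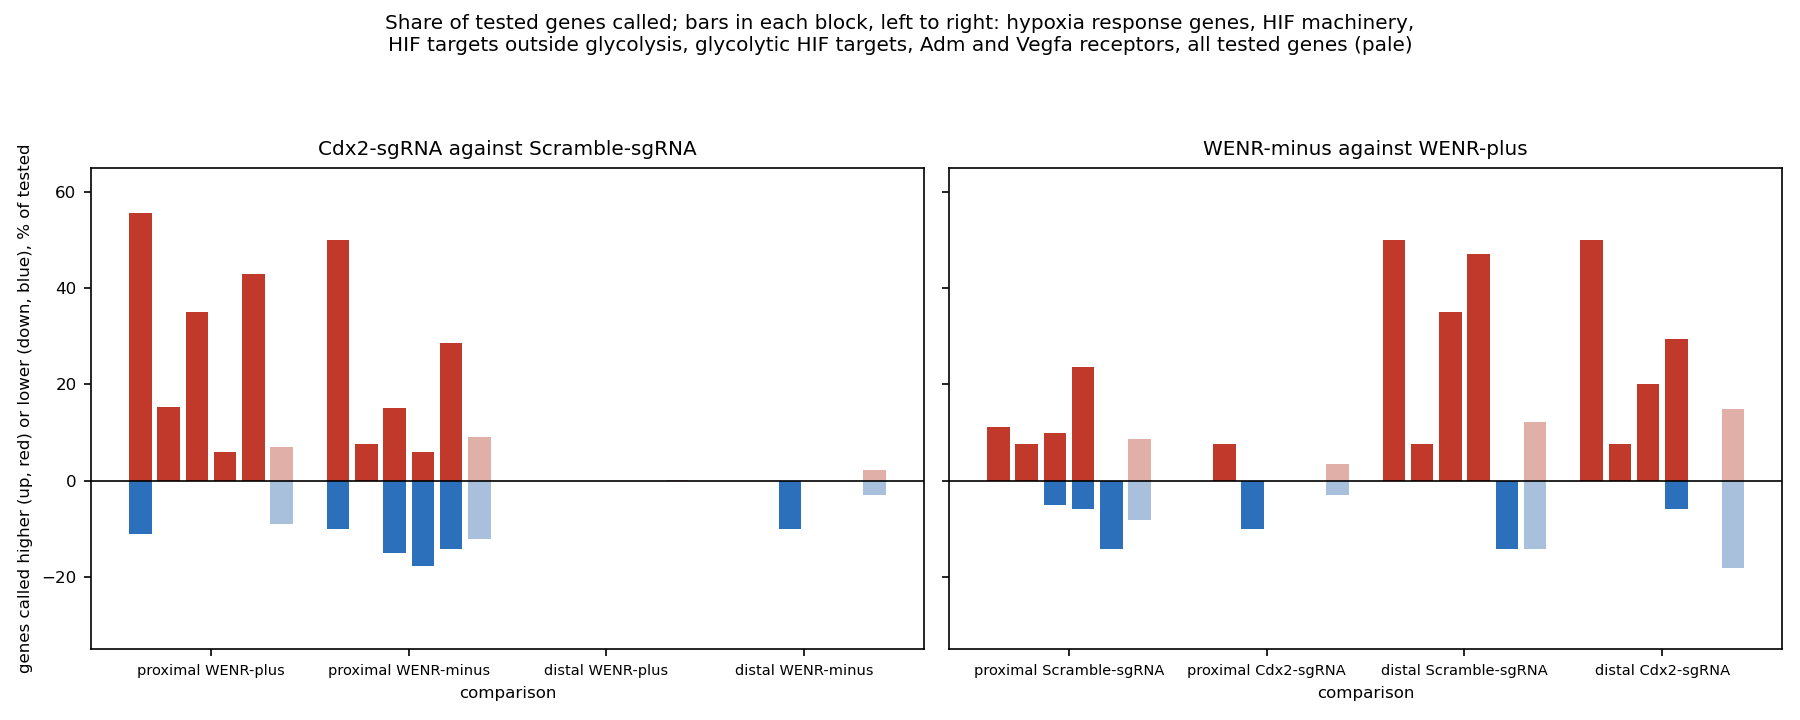
Share of tested genes called higher (red, above 0) or lower (blue, below 0) in percent (y axis) for the members, 4 further lists of the pathway and all genes tested (pale), in the 4 comparisons of Cdx2-sgRNA with Scramble-sgRNA (left) and the 4 of WENR-minus with WENR-plus (right; x axes). Members show calls in proximal WENR-minus organoids at left, their WENR-plus bar, without Adm, belongs to the comparison that picked Adm and is a description, and they show 5 of 10 upward calls in both distal blocks at right, where 8 and 5 of 17 glycolytic targets also rose.

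Ddit4 and Vegfa also answer to amino acid stress, so 10 Atf4 pathway genes were read. Slc7a11 rose (1.02) with Cdx2-sgRNA in proximal WENR-plus and Sesn2 fell (-1.11) in proximal WENR-minus, with no other call in those comparisons, each 1 of 10 beside 6.93% of all genes higher and 12.1% lower. With WENR-minus, Phgdh and Slc7a11 fell in distal Scramble-sgRNA (-1.99 and -1.19), where 14.2% of all genes fell, and 4 of 10 fell in distal Cdx2-sgRNA (Asns, Phgdh, Psat1 and Slc7a11), where 18.1% of all genes fell.

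Markers of cell state also differed between groups. The 6 goblet cell markers summed to 5267 to 6652 CPM in proximal Scramble-sgRNA WENR-minus and to 51.9 to 69.3 in proximal Cdx2-sgRNA WENR-minus. The 7 colonocyte markers summed to 6780 to 10054 and 519 to 1591 CPM in the same groups. In proximal WENR-plus the goblet sums were 833 to 1348 CPM with Scramble-sgRNA and 33.5 to 46.3 with Cdx2-sgRNA. The colonocyte sums overlapped there, at 206 to 260 and 136 to 240 CPM. In distal organoids the colonocyte sum was 263 to 654 CPM in WENR-plus and 7071 to 15994 in WENR-minus, where Hif1a, Egln3, Vegfa and Ndrg1 rose. It was 206 to 260 CPM in WENR-plus and 6780 to 10054 in WENR-minus in proximal Scramble-sgRNA organoids. Of these genes Ndrg1 alone passed there, while Vegfa (0.55) and Egln3 (0.63) lay higher and Hif1a lower (-0.27) without passing. The direct test of the medium effect between regions passed for 0 of 9 members in Scramble-sgRNA organoids, beside 0.0719% of all genes, in edgeR without the culture block. The 8 proliferation markers summed to 336 to 594 CPM in proximal Scramble-sgRNA WENR-minus and 752 to 859 in proximal Cdx2-sgRNA WENR-minus, and lay the other way in proximal WENR-plus, at 1498 to 1734 and 689 to 867. In distal organoids they were lower in WENR-minus, at 1595 to 1807 CPM against 406 to 588 with Scramble-sgRNA. With Cdx2-sgRNA the distal sums were 1267 to 1729 CPM in WENR-plus and 220 to 319 in WENR-minus. The 6 endothelial markers summed to 1.11 to 11.6 CPM over all libraries, lowest in proximal Cdx2-sgRNA WENR-minus. The 6 leukocyte markers were highest in it (16.02 to 26.4 CPM, against 1.51 to 15.1 elsewhere), with Cd3e at most at 1 read and Ptprc at most at 12 in any library. Csf1r and Cd68 made up most of that sum, at 261 and 107 reads and at 73 and 188 reads in proximal Cdx2-sgRNA WENR-minus against 2 and 2 and 23 and 10 with Scramble-sgRNA, while Itgam went the other way (9 and 3 against 58 and 37 reads). The part of cell type and cell state in the members' changes was not tested.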

How the data were processed

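Each of the 16 libraries was total RNA made with a stranded kit. The authors ran Salmon 1.1.0 on mm10 transcripts, and the deposited tables give 1 expected count (estimated count, not normalized) for each of 140748 transcripts in a library. The TPM column that the authors deposited beside it, also from Salmon, was not tested. Their later DESeq2 1.32 results are not used here. For this report the counts were summed per gene with GENCODE vM21 (139864 transcripts matched, 0.257 to 0.509% of counts unmatched) and rounded to whole numbers, since edgeR takes counts. Mitochondrial rRNA took 15.5 to 28.0% of counts. Genes passing filterByExpr (15289) were fitted in edgeR 4.0.16 (R 4.3.3) by quasi-likelihood with TMM scaling and 1 coefficient per group over all 16 libraries, which leaves 8 residual degrees of freedom. There were 12 comparisons of 2 groups and 6 differences between comparisons. P-values are two-sided and Benjamini-Hochberg adjusted over all genes tested within each contrast. Calls required an adjusted p below 0.05 together with a log2 fold change beyond 1 in either direction. Each standard error is |log2 fold change| over the root of the F statistic. A group with at most 3 reads in each library was set to 3 reads per library for a bound. The procedure was run on simulated counts with the same spread for all genes, independent libraries and changes only in genes well above 0 reads. That run covers neither genes near 0 reads, such as Adm, nor libraries that deviate together. Replicates of a group differed beyond sampling noise, so none was counted as a duplicate.

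The members and gene lists were chosen with earlier results of these data known. All 10 members are named, and other genes are named from those lists. Some genes that the rules would name are not reported here. Adm was tested only in contrasts without proximal WENR-plus libraries, and it was also left out of the 6 differences. Alternatives were DESeq2 1.42.0, its size factors, no filter, at least 10 counts in every library, fits on the compared groups alone, a replicate or culture block, length-scaled counts, no fold threshold, and leaving out each library. Promoter windows came from RefSeq (GRCm38.p6), and coordinates of genes from GENCODE vM21.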

Additional observations from a re-analysis of the deposited data

Results flagged for a closer look

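Differences between 2 groups' effects passed the edgeR test for 4 members, 6 in all. The effect of Cdx2-sgRNA was larger in proximal than in distal organoids for Bnip3 in WENR-plus, by 1.70 on the log2 scale, and in WENR-minus, by 2.07. In WENR-minus it was also larger for Pfkfb3, by 1.78, and lower for Epas1, with a difference of -2.33. Over all genes, 4.98% were called in either direction in WENR-plus and 14.3% in WENR-minus. In Cdx2-sgRNA organoids the difference between proximal and distal organoids was lower in WENR-minus than in WENR-plus for Bnip3 (-1.64) and Hif1a (-1.30). There 7.70% of all genes were lower. The WENR-plus call of Bnip3 and the call of Hif1a were lost without single libraries, with values as small as 1.46 and -0.89. The sums of goblet and colonocyte markers also differed between these groups, and their part in the result was not tested.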

How the results depend on the processing

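Of 38 called member results, 23 kept their call under every alternative run and 33 under every one that kept all libraries, and 0 of them turned their sign. The number of called differences between comparisons went from 6 to 14 with DESeq2, to 14 with a culture block in the 4 of 6 contrasts it can be fitted to (the 4 calls of the other 2 contrasts kept as they were) and to 20 with no filter on low counts. For the other gene lists the number of calls went from 154 to 268 with no filter and 236 with no fold threshold. The cause was not tested. With no filter the distal Adm contrasts were also called (4.23 in WENR-plus, edgeR adjusted p = 1.67e-17).
The distal Adm value turned its sign without replicate 2 of distal Cdx2-sgRNA: leaving out libraries in turn gave -0.60 to 5.76 in WENR-plus and -1.58 to 4.03 in WENR-minus. Leaving out single libraries gave 10 to 12 calls for Cdx2-sgRNA (12 with all, 6 of them in the comparison that picked Adm), 10 to 11 for medium (11), 8 to 10 for region (9), 4 to 8 for differences (6) and 133 to 159 for the other lists (154).
Same-numbered deviations correlated at 0.281 to 0.589 in the 4 pairs of media of 1 region and guide, and at -0.0594 to 0.189 in the other 24 pairs of groups; 9 of all 28 were over 0.1. With a block for each culture, medium calls were 14 and those of the other lists 192. With the replicate number as a block the calls were 13, 11, 9, 8 and 167 for Cdx2-sgRNA, medium, region, differences and the other lists, and Ndrg1 with Cdx2-sgRNA in proximal WENR-minus then passed (-1.10, edgeR adjusted p = 0.0155). Depth limits Adm in Scramble-sgRNA organoids, where no library held over 23 reads, and with 2 libraries a group small differences were not detectable.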
